A study of Mus musculus with 9 samples.

Results

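The retinoic acid genes described here are Cyp26b1, which breaks retinoic acid down, Aldh1a1, Aldh1a2 and Aldh1a3, which make it, Crabp1 and Crabp2, which bind it in the cytoplasm, and Rara, Rarb and Rarg, the nuclear receptors it activates. They were chosen as the named genes of this pathway, with no threshold on their values, and all 9 were among the 15300 genes of the deposited tables. The samples were gonads of C57BL/6 mouse fetuses at E13.5, the stage at which testis and ovary have just become distinct, freed of the mesonephros, with 3 RNA sequencing samples in each of 3 groups. XY-WT was testis of genotype XY Sox9flox/flox, XX-WT was ovary of genotype XX Sox9flox/flox, and XY-KO was testis of genotype XY AMH-Cre; Sox9flox/flox. The floxed alleles were thus shared by all groups, and the labels name the Cre only in XY-KO. The AMH promoter is active in Sertoli cells, the supporting cells of the testis, so the deletion was aimed at that cell type and not at germ cells or interstitial cells. Whether one fetus or several made up a sample is not given in the labels, so each error describes the spread between samples, which may be technical.

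Retinoic acid is a small lipid signal made from retinol (vitamin A) by alcohol and retinol dehydrogenases and then, irreversibly, by the ALDH1A aldehyde dehydrogenases. It binds RAR receptors paired with RXR receptors on DNA, and CYP26 enzymes oxidise it to inactive products. In the fetal gonad it is best known from germ cells: in the ovary they switch on Stra8 and enter meiosis, while in the testis CYP26B1 in somatic cells keeps retinoic acid away from them, and SOX9 is known as an activator of Cyp26b1.

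The values come from the authors' limma comparisons (limma fits a linear model per gene and shares information on the spread between genes), given as log2 fold changes on the CPM scale, which is reads of a gene relative to all reads of its library. A gene was called at the authors' adjusted p under 0.05. No values of single samples were used here, so each group is given by its level derived from the authors' mean and fold changes, with its standard error (SE), and the depth behind it is unknown. Sox9, the deleted gene, had a log2 fold change of -2.76 in XY-KO against XY-WT in the authors' deposited table (SE 0.172, limma adjusted p 8.93e-07). Its level was 6.48 in XY-WT and 3.72 in XY-KO in log2 CPM, and XX-WT stood at 2.01. XY-KO thus kept Sox9 transcript above the ovary, at 1.71 against XX-WT in the authors' deposited table (limma adjusted p 8.14e-05). The summed level of 8 Sertoli cell markers was 544 CPM in XY-WT, 195 in XY-KO and 21.8 in XX-WT, and that of 7 ovarian somatic markers was 32.7, 42 and 364, so the marker levels matched the labelled tissues. In whole gonads, fewer cells of a type and less RNA per cell cannot be told apart.

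Promoter sequences are shown for Rarb, whose own response to retinoic acid is known, and for Cyp26b1, Aldh1a1 and Rara, the members lower in ovary than in testis. RefSeq promoter windows on GRCm38.p6 (250 bases before to 50 bases after a start site) were found for 7 members, with 12 windows in all. Both strands were searched for 3 core sequences of retinoic acid response elements, namely AGGTCA in the common form, GGTTCA as a variant and AGTTCA as another. Direct repeats of the pattern (A or G)G(G or T)TCA, spaced by 2 bases (DR2) or 5 bases (DR5), were searched too. A repeat can thus contain the named cores or a form beyond them. The search also covered AACAAT, which SOX proteins bind. The site of the gonadal factor NR5A1, AAGGTCA, holds the common core within it and was found in no member's window (4.72% of all windows). The lines below hold, 5′ to 3′ on the gene's strand, a DR5 of Rarb (chr14:16575506-16575535, minus strand), the stretch upstream of Cyp26b1 (chr6:84593909-84594060, minus strand), the one before a start site inside the Aldh1a1 gene span (chr19:20601718-20601960, plus strand) and the one before a start site inside the Rara gene span (chr11:98964622-98964871, plus strand). Capitals mark motif matches, and ATTGTT is AACAAT read on the other strand.
Rarb DR5: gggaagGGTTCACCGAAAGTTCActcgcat
Cyp26b1: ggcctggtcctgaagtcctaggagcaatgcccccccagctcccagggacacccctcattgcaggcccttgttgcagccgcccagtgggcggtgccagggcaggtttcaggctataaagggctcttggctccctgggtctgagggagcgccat
Aldh1a1: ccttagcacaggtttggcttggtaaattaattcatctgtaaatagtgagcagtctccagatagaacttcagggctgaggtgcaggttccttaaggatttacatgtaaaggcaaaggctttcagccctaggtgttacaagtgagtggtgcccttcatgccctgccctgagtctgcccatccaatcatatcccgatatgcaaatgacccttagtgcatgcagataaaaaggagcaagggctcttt
Rara: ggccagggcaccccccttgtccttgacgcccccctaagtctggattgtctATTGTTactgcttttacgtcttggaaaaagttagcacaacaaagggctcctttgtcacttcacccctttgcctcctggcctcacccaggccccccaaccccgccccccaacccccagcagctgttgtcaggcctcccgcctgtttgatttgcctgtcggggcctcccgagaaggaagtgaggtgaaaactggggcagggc

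The Rarb element begins 53 bases before the start site and lies within an annotated GENCODE exon. A DR5 was present in 0.0974% of all 32851 windows of this length, and among the members' windows only that of Rarb held one. The Rarb window also holds AACAAT, on the other strand 215 bases before the start. No motif was found in the windows of Cyp26b1, Aldh1a1, Aldh1a2 or Crabp1. Of the 4 Rara windows, the one shown holds AACAAT (in 10.7% of all windows) 200 bases before the start and AGGTCA (16.3% of all windows) 33 bases after it, beyond the printed stretch, and another holds GGTTCA (10.4%) at 2 places and AGTTCA (14%). The remaining Rara windows held no motif, so the one shown is the only Rara window with AACAAT. The first Rarg window holds AGGTCA. A match describes the letters only and is no evidence of binding, and a window without a match says nothing about the factor.

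Levels are compared between genes per kilobase of the longest transcript. In XY-WT, Aldh1a1 was the most abundant member at 7.43 in log2 CPM per kb (SE 0.114), followed by Cyp26b1 at 4.56 (SE 0.0879), Aldh1a2 at 4.40 (SE 0.112) and Rara at 3.32 (SE 0.13). Cyp26b1 and Aldh1a2 did not differ beyond their errors there. The other 5 members lay between -1.24 for Rarb and 0.20 for Crabp2, and no neighbours among them differed beyond their errors. In XY-KO the same 4 genes led, with Aldh1a1 at 7.56, Aldh1a2 at 4.67, Cyp26b1 at 4.29 and Rara at 2.45 in log2 CPM per kb. In XX-WT, Aldh1a2 at 4.93 and Aldh1a1 at 4.68 were the highest and did not differ beyond their errors at this length, Rara followed at 2.58, and Cyp26b1 was the lowest of the 9 at -0.78 (SE 0.193). Its neighbour Rarg at -0.65 did not differ from it beyond the errors. The length used changes part of this order. Per kb of the union of all exons, Aldh1a2 at 4.93 stood above Aldh1a1 at 3.61 in XX-WT, a gap beyond their errors. Rarg at -1.18 was below Cyp26b1 at -1.03 in XX-WT, a gap within their errors. In XY-WT, Aldh1a2 at 4.40 stood above Cyp26b1 at 4.31 by this length, also within their errors.

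**Figure D1:**
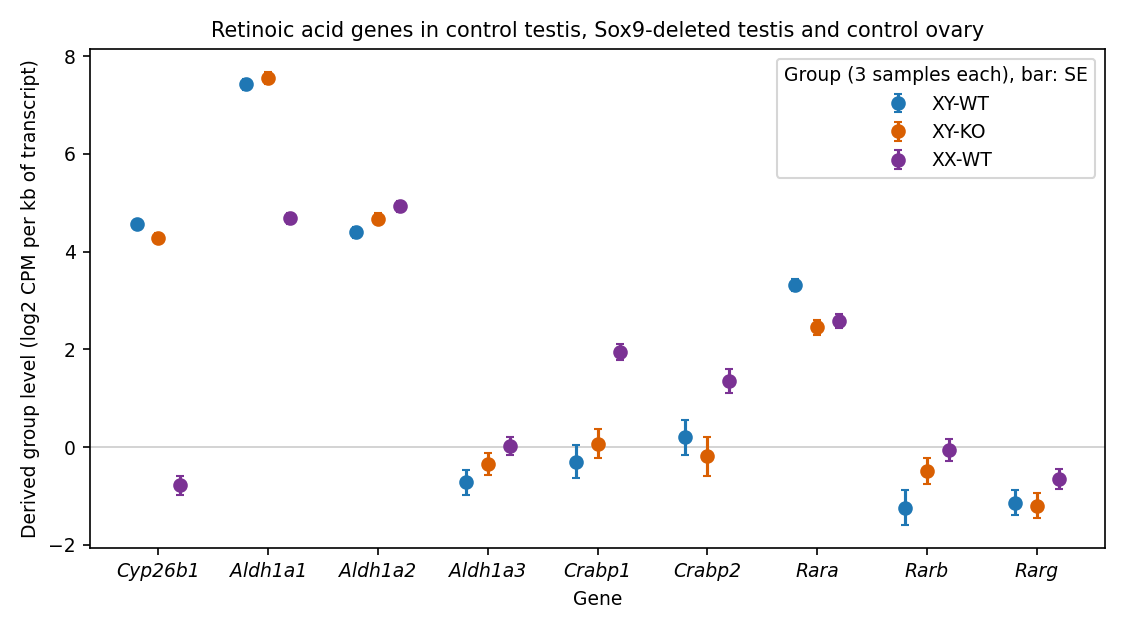
Derived level of each retinoic acid gene in log2 CPM per kb of transcript (vertical axis) in the 3 groups of 3 samples; points are group levels and bars are SE. Cyp26b1 stands at 4.56 in XY-WT, 4.29 in XY-KO and -0.78 in XX-WT, while Rara is at 3.32 in XY-WT and at 2.45 and 2.58 in the other groups.

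Cyp26b1 (ENSMUSG00000063415, chromosome 6, 84571414 to 84593908 on GRCm38) separated both kinds of testis from the ovary. Its level was 6.73 in log2 CPM in XY-WT (SE 0.0879), 6.46 in XY-KO (SE 0.0911) and 1.39 in XX-WT (SE 0.193), or 106, 88.1 and 2.62 CPM. The 2 testis groups lay close together and far above the ovary. It was 40.5-fold lower in XX-WT than in XY-WT (95% interval 29.6 to 55.4), with a log2 fold change of -5.34 in the authors' deposited table (limma adjusted p 3.92e-10). XY-KO stood 33.6-fold above XX-WT (95% interval 24.5 to 46), a log2 fold change of 5.07 in the authors' deposited table (limma adjusted p 7.02e-10).

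In the Sox9-deleted testis, where Sox9 transcript was reduced but still present, Cyp26b1 was not called against the control testis. In XY-KO against XY-WT its log2 fold change was -0.27 in the authors' deposited table (SE 0.127, limma adjusted p 0.262, unadjusted p 0.0493), which did not pass the test. The 95% interval began at -0.54, so a fall of more than 1.45-fold lay outside it. Of 8 Sertoli cell markers, Sox9 among them, 7 fell in the same comparison and none rose, where 1.57% of all genes fell. The median of these markers was -1.43 against -0.01 over all genes. The 8th, Mro, was at -0.47 in the authors' deposited table (limma adjusted p 0.0719). The Sertoli list's part in the Cyp26b1 value was not tested. None of 4 fetal Leydig cell markers or 5 interstitial markers was called by limma there, beside 2.27% of all genes. None of these markers had an unadjusted p under 0.05, beside 2899 of all 15300 genes. After the dependence of fold changes on GC content and transcript length was subtracted, Cyp26b1 was at -0.06 (adjusted p 0.87).

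The 3 synthesis enzymes did not move together between the sexes. Aldh1a1 (ENSMUSG00000053279, chromosome 19, 20492715 to 20643465) was high in both kinds of testis and lower in the ovary, with 406 CPM in XY-WT, 443 in XY-KO and 60.3 in XX-WT. It was 6.73-fold lower in XX-WT than in XY-WT (95% interval 5.27 to 8.6), with a log2 fold change of -2.75 in the authors' deposited table (SE 0.166, limma adjusted p 1.33e-08). In XY-KO against XY-WT it was at 0.13 in the authors' deposited table (95% interval -0.22 to 0.48, limma adjusted p 0.72). XY-KO lay 7.36-fold above XX-WT (95% interval 5.74 to 9.45, limma adjusted p 1.66e-08).

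Aldh1a2 (ENSMUSG00000013584, chromosome 9, 71215789 to 71296243), the main source of retinoic acid in the early embryo and in the mesonephros, went the other way. Its level was 47.9 CPM in XY-WT, 57.7 in XY-KO and 68.9 in XX-WT. It was 1.44-fold higher in XX-WT than in XY-WT (95% interval 1.14 to 1.81), at 0.52 in the authors' deposited table (SE 0.155, limma adjusted p 0.0228). XY-KO lay between the controls and differed from neither by limma, at 0.27 against XY-WT (adjusted p 0.377) and -0.26 against XX-WT (adjusted p 0.3) in the authors' deposited table. Aldh1a3 (chromosome 7, 66390890 to 66427517) was scarce, at 2.09 CPM in XY-WT, 2.7 in XY-KO and 3.49 in XX-WT, and was called in no comparison. Its largest log2 fold change was 0.74 for XX-WT against XY-WT in the authors' deposited table (95% interval 0.05 to 1.43, limma adjusted p 0.113).

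Summed per kb of transcript, the 3 enzymes reached 194 CPM per kb in XY-WT, 214 in XY-KO and 57 in XX-WT. Aldh1a1 made up 88.8% of that sum in XY-WT, 87.7% in XY-KO and 44.8% in XX-WT, and Aldh1a2 made up 10.9%, 11.9% and 53.4%. With the union of all exons as the length, the sums were 104, 116 and 43.4 CPM per kb and the Aldh1a1 share was 79.2%, 77.5% and 28.1%, so the leading enzyme was the same under both lengths in each group. These shares have no error, since they combine group levels.

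**Figure D2:**
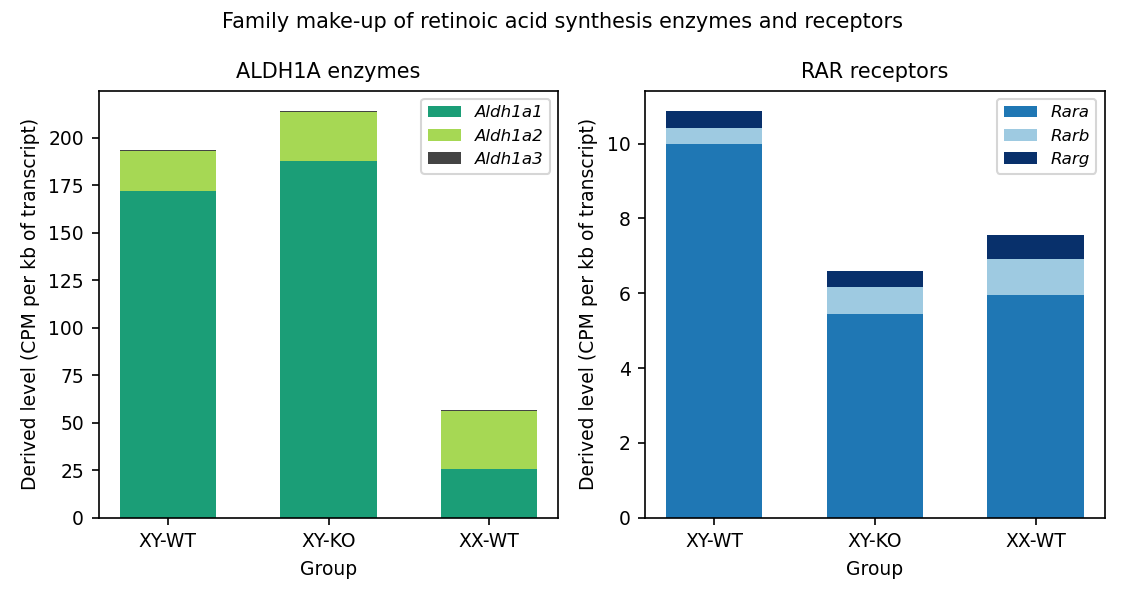
Derived levels in CPM per kb of transcript (vertical axes, from 0), stacked by gene, for the ALDH1A enzymes (left) and the RAR receptors (right) in the 3 groups. The enzyme sum is 194 in XY-WT, 214 in XY-KO and 57 in XX-WT, and Rara makes up 91.9%, 82.7% and 78.9% of the receptor sum in the same order.

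Marker genes of other cells differed between the sexes beside these enzymes, and their part in the results was not tested. In XX-WT against XY-WT, all 4 measured fetal Leydig markers and all 5 interstitial markers were lower, where 12.4% of all genes were lower. Summed levels were 612 CPM in XY-WT, 602 in XY-KO and 21.3 in XX-WT for the Leydig list. For the interstitial list they were 566, 562 and 238 CPM. Of 5 measured mesonephric markers, 4 were higher and 1 lower in XX-WT, beside 10.9% and 12.4% of all genes. The list summed to 72.1 CPM in XY-WT, 93.1 in XY-KO and 209 in XX-WT. Most of that sum was Emx2, which the gonad itself expresses, at 5.86, 6.35 and 7.57 in log2 CPM. The higher markers included Pax8, at 1.13 in XY-WT, 1.82 in XY-KO and 3.22 in XX-WT, Ret, at 0.20, -2.27 and 2.55, and Pax2, at -1.82, -3.26 and 0.35, and the lower one was Lhx1, at 3.39, 2.93 and 1.48 in log2 CPM. No marker of the mesonephric list was called in XY-KO against XY-WT by limma, with 2 at an unadjusted p under 0.05. Nor did limma call any of 4 endothelial, 2 macrophage and 3 surface epithelial markers there, with 1 endothelial marker at an unadjusted p under 0.05. Over all genes, 2.27% were called in that comparison and 2899 of 15300 had an unadjusted p under 0.05.

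The cytoplasmic binding proteins were scarce in testis, and Crabp1 was higher in ovary than in either kind of testis. Crabp1 (ENSMUSG00000032291, chromosome 9, 54764748 to 54773110) was at 0.653 CPM in XY-WT, 0.841 in XY-KO and 3.08 in XX-WT. Both kinds of testis lay below the ovary. It was 4.72-fold higher in XX-WT than in XY-WT (95% interval 2.71 to 8.22), a log2 fold change of 2.24 in the authors' deposited table (SE 0.376, limma adjusted p 0.000401), and 3.67-fold lower in XY-KO than in XX-WT (95% interval 2.23 to 6.02). In XY-KO it was at 0.37 against XY-WT in the authors' deposited table (SE 0.448, limma adjusted p 0.704).

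Crabp2 (ENSMUSG00000004885, chromosome 3, 87948666 to 87953376), which passes retinoic acid on to the receptors, was at 1.07 CPM in XY-WT, 0.816 in XY-KO and 2.37 in XX-WT. It was 2.9-fold lower in XY-KO than in XX-WT (95% interval 1.45 to 5.81), at -1.54 in the authors' deposited table (SE 0.47, limma adjusted p 0.032). The same contrast with the control testis, XX-WT against XY-WT, was 1.15 in the authors' deposited table (SE 0.435) and did not pass (limma adjusted p 0.0702). XY-KO against XY-WT was -0.39 in the authors' deposited table (SE 0.539, limma adjusted p 0.742), and the 2 kinds of testis were not shown to differ. Germ cell markers were also higher in ovary, 5 of 8 in XX-WT against XY-WT with 1 lower, beside 10.9% and 12.4% of all genes. Their sums were 356 CPM in XY-WT, 284 in XY-KO and 561 in XX-WT. The part of these markers in the Crabp1 and Crabp2 differences was not tested.

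Among the receptors, Rara was the main one in every group and the only member called in XY-KO against XY-WT. Rara (ENSMUSG00000037992, chromosome 11, 98927818 to 98974942) had a level of 33.8 CPM in XY-WT, 18.5 in XY-KO and 20.2 in XX-WT. The derived level of the Sox9-deleted testis lay beside that of the ovary, and both were below the control testis. It was 1.83-fold lower in XY-KO than in XY-WT (95% interval 1.37 to 2.44), a log2 fold change of -0.87 in the authors' deposited table (SE 0.195, limma adjusted p 0.0278). Against XY-WT, XX-WT was 1.68-fold lower (95% interval 1.27 to 2.22), at -0.75 in the authors' deposited table (limma adjusted p 0.00975). XY-KO against XX-WT was -0.13 in the authors' deposited table (95% interval -0.56 to 0.30, limma adjusted p 0.734).

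The Rara calls ran alongside the fall of the Sertoli cell markers given above, whose part was not tested, and they depended on how GC content and length were treated. Its longest transcript is 59.2% GC, and genes like it had a fitted trend of -0.31 in XY-KO and -0.30 in XX-WT, both against XY-WT. Without that trend the changes were -0.57 (adjusted p 0.174) and -0.45 (adjusted p 0.109), and neither passed. Of the 6 members called in at least 1 comparison, Rara was the only one whose calls ended in this way.

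Rarb (ENSMUSG00000017491, chromosome 14, 16430839 to 16819156), known as a direct target of retinoic acid through a DR5 in its promoter, was at 1.32 CPM in XY-WT, 2.21 in XY-KO and 2.97 in XX-WT. Its log2 fold changes in the authors' deposited table were 0.75 for XY-KO against XY-WT (SE 0.447, limma adjusted p 0.383) and 1.18 for XX-WT against XY-WT (SE 0.421, limma adjusted p 0.0559), and neither passed. In the annotation 1793 of its 5265 exonic bases are shared with Top2b on the opposite strand, a gene with a mean of 8.02 in log2 CPM, and the sources used here do not say whether counting used strand. Top2b itself was at 0.07 and 0.14 in the same comparisons of the authors' deposited table, and its part in the Rarb values was not tested.

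Rarg (chromosome 15, 102234938 to 102257517) was at 1.34 CPM in XY-WT, 1.28 in XY-KO and 1.88 in XX-WT and was called in no comparison. Its log2 fold change in XY-KO against XY-WT was -0.06 in the authors' deposited table (95% interval -0.83 to 0.71, limma adjusted p 0.945). Summed per kb, the 3 receptors reached 10.9 CPM per kb in XY-WT, 6.61 in XY-KO and 7.55 in XX-WT, or 8.31, 4.96 and 5.63 per kb of the union of all exons. Per kb of the longest transcript, Rara made up 91.9%, 82.7% and 78.9% of these sums, and Rarb 3.89%, 10.8% and 12.7%.

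Counted over the members, limma called 1 of 9 in XY-KO against XY-WT (Rara, lower), where 2.27% of all genes were called, 0.699% higher and 1.57% lower. With the dependence on GC content and length subtracted, the calls over all genes were 120 higher and 143 lower, against 107 and 240. At an unadjusted p under 0.05 there were 2 of 9 members, Rara and Cyp26b1, and 2899 of all 15300 genes. In XX-WT against XY-WT it called 5 of 9, with Aldh1a2 and Crabp1 higher and Cyp26b1, Aldh1a1 and Rara lower, where 23.3% of all genes were called, 10.9% higher and 12.4% lower. In XY-KO against XX-WT it called 4 of 9, with Cyp26b1 and Aldh1a1 higher and Crabp1 and Crabp2 lower, where 18.3% of all genes were called, 9.16% higher and 9.11% lower. The members' median log2 fold changes were 0.13, 0.52 and -0.37 in these comparisons, against -0.01, 0.00 and 0.00 over all genes. The 3 comparisons share their groups and are not independent of each other.

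**Figure D3:**
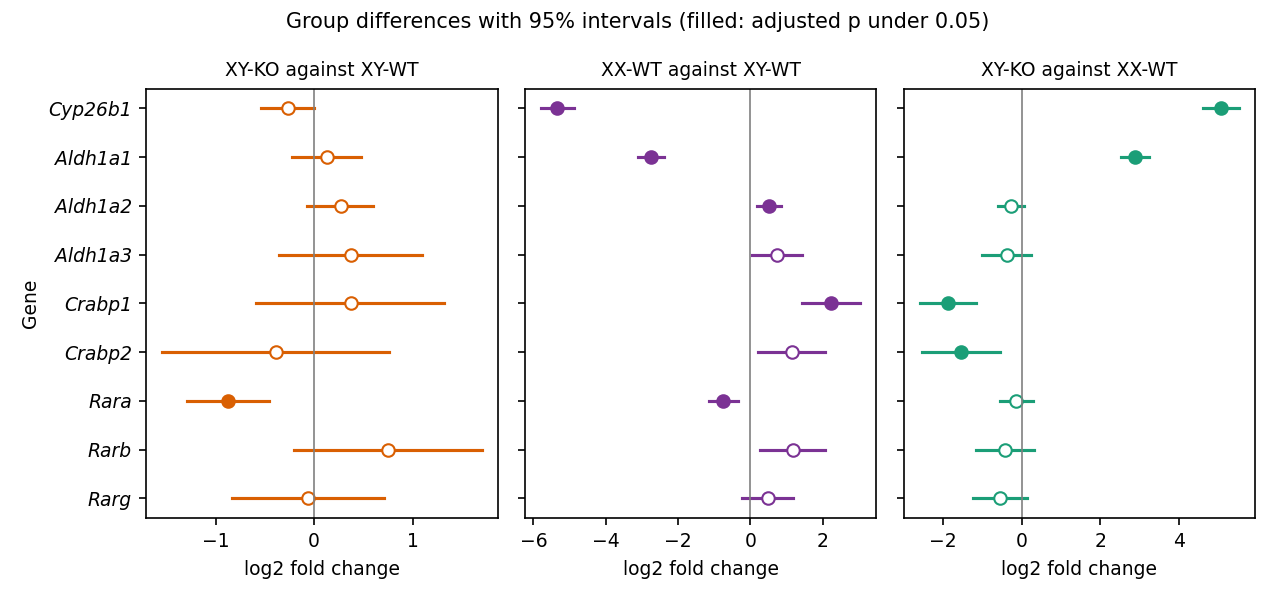
Log2 fold change of each member (horizontal axes, scaled separately) with its 95% interval in the 3 comparisons; filled points have an adjusted p under 0.05. Rara at -0.87 is the only filled point in XY-KO against XY-WT, and Cyp26b1 stands apart at -5.34 and 5.07 in the other panels.

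The wider pathway was read from a list of 59 further retinoid genes, of which 40 were measured. Limma called 2 of the 40 in XY-KO against XY-WT, 1 higher and 1 lower, where 2.27% of all genes were called. In XX-WT against XY-WT it called 16, 10 higher and 6 lower, where 23.3% of all genes were called. In XY-KO against XX-WT it called 11, 4 higher and 7 lower, where 18.3% of all genes were called. The medians over the list were 0.00, 0.05 and 0.01, close to those of all genes. Neither of the other CYP26 enzymes on the list, Cyp26a1 and Cyp26c1, was in the tables used here.

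Of 14 measured genes that carry, take up or interconvert retinol, 2 were higher and 2 lower in XX-WT against XY-WT, a share near the 23.3% of all genes called there. Adh1 (chromosome 3, 138260991 to 138290698), an alcohol dehydrogenase that can oxidise retinol, was at 35.9 CPM in XY-WT, 30.6 in XY-KO and 0.734 in XX-WT. Its log2 fold change for XX-WT was -5.61 in the authors' deposited table (SE 0.424, limma adjusted p 1.35e-07), and for XY-KO against XY-WT it was -0.23 (limma adjusted p 0.518). The more general Adh5 was lower in XX-WT, at -0.57 in the authors' deposited table (limma adjusted p 0.00568). Rdh10, a retinol dehydrogenase needed for retinoic acid synthesis in the embryo, was higher in XX-WT at 0.75 in the authors' deposited table (limma adjusted p 0.0163). So was Dhrs3, which turns retinal back to retinol, at 0.68 in the authors' deposited table (limma adjusted p 0.0163). None of the 14 was called in XY-KO against XY-WT by limma, with 2 at an unadjusted p under 0.05. The background there was 2.27% of all genes called, and 2899 of 15300 under that unadjusted p.

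Fabp5, a fatty acid binding protein that can carry retinoic acid to another nuclear receptor, was lower in the Sox9-deleted testis than in the control testis. Its level was 9.67 CPM in XY-WT, 4.94 in XY-KO and 3.26 in XX-WT, and its log2 fold change in XY-KO against XY-WT was -0.97 in the authors' deposited table (SE 0.212, limma adjusted p 0.0244). In XX-WT against XY-WT it was -1.57 in the authors' deposited table (limma adjusted p 0.000106). The partner receptors Rxra and Rxrb were called in no comparison by limma, and neither had an unadjusted p under 0.05 in any. Of 8 receptor co-regulators, the co-activator Ncoa3 (0.49) and Nrip1 (0.54) were higher in XX-WT against XY-WT in the authors' deposited table, with limma adjusted p of 0.0122 and 0.0035. In that comparison 10.9% of all genes were higher and 12.4% lower, and 1 called gene of the wider list is not reported here. None of the 8 co-regulators was called in XY-KO against XY-WT by limma, with 1 at an unadjusted p under 0.05. Beside them, 2.27% of all genes were called and 2899 of 15300 were under that unadjusted p.

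Of 17 measured genes known to respond to retinoic acid, 7 were higher and 2 lower in XX-WT against XY-WT, where 10.9% of all genes were higher and 12.4% lower. Stra8, the germ cell gene that starts meiosis, was at 2.53 in log2 CPM in XX-WT and near the floor in both testis groups, at -4.66 in XY-WT and -3.76 in XY-KO. Its log2 fold change in XX-WT against XY-WT was 7.19 in the authors' deposited table (SE 0.975, limma adjusted p 5.55e-05), a value that depends on the offset added before taking logs. Rec8, a meiotic cohesin, was at 1.69 CPM in XY-WT, 2.58 in XY-KO and 22.3 in XX-WT, with a log2 fold change of 3.72 for XX-WT in the authors' deposited table (limma adjusted p 1.66e-06). Neither passed in XY-KO against XY-WT: in the authors' deposited table Stra8 was at 0.89 (SE 1.37, limma adjusted p 0.773) and Rec8 at 0.61 (SE 0.427, limma adjusted p 0.469). The 95% interval of Stra8 ran from -2.02 to 3.80, which includes changes of several-fold in either direction.

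The other responders higher in XX-WT against XY-WT in the authors' deposited table were Zfp703 (0.95), Gata6 (0.70), Dhrs3, Tshz1 (0.52) and Meis1 (0.50), and the lower ones were Nr2f2 (-0.92) and Rai14 (-0.75). Nr2f2 is also an interstitial marker. The Meis1 call ended once the dependence on GC content and length was subtracted (0.42, adjusted p 0.0793), and so did that of Dhrs3 in XY-KO against XX-WT (adjusted p 0.0709). In XY-KO against XY-WT, Meis1 was at 0.65 in the authors' deposited table and just missed the test (limma adjusted p 0.0531).

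Rarres1, a gene found through its induction by retinoids, was the only responder called in XY-KO against XY-WT. It was 1 of 17 measured responders, and 2.27% of all genes were called there. Its level was 0.936 CPM in XY-WT, 3.86 in XY-KO and 1.04 in XX-WT, so the Sox9-deleted testis was above both controls. The rise was 4.12-fold over XY-WT (95% interval 2.55 to 6.67), at 2.04 in the authors' deposited table (SE 0.326, limma adjusted p 0.00248), and 3.7-fold over XX-WT (95% interval 2.39 to 5.71, limma adjusted p 0.000265). XX-WT against XY-WT was 0.16 in the authors' deposited table (limma adjusted p 0.807).

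**Figure D4:**
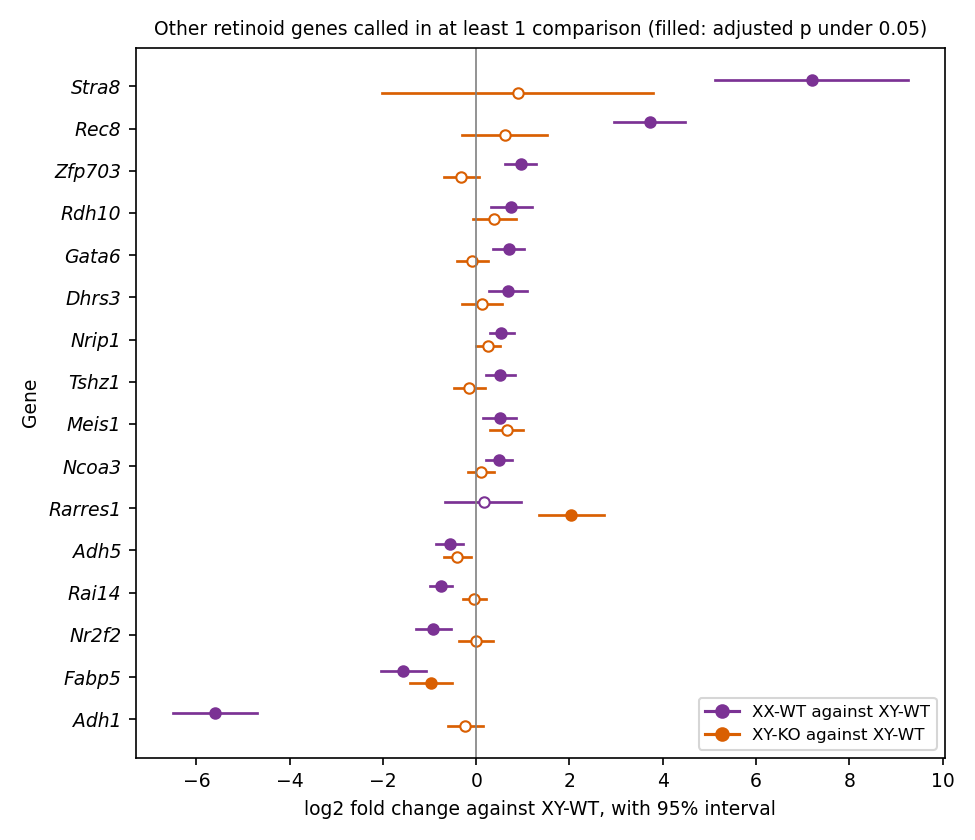
Log2 fold change against XY-WT (horizontal axis) with 95% interval for 16 genes of the wider list called in at least 1 comparison, for XX-WT (purple) and XY-KO (orange); filled points have an adjusted p under 0.05. Rarres1 at 2.04 and Fabp5 at -0.97 are the only filled orange points, while Adh1 at -5.61 and Stra8 at 7.19 mark the ends of the purple range.

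Genes with a profile over the 3 groups most like that of each member called in XX-WT against XY-WT were found as the nearest among 7352 named genes at or above median expression, by the distance between their log2 fold changes against XY-WT. For Cyp26b1 the nearest was Adh1 at a distance of 0.28, followed by the Y-linked genes Kdm5d (0.65) and Uty (0.81), which XX samples lack. For Aldh1a1 they were the Notch ligand Jag1 (0.09), Gramd1b (0.12) and the chemokine Cxcl12 (0.15). Aldh1a2 was nearest to Cog7 (0.01), Rock2 (0.02) and Tanc2 (0.02), and Crabp1 to Itpr2 (0.16), Kcnd2 (0.17) and Olfm1 (0.18). Rara was nearest to the SOX family gene Sox13 (0.08), the histone gene Hist1h1e (0.11) and Cst8 (0.12), a cystatin. In XY-KO against XY-WT, Sox13 was at -0.84 (limma adjusted p 0.027), Cst8 at -0.76 (limma adjusted p 0.0344) and Hist1h1e at -0.77 (limma adjusted p 0.141) in the authors' deposited table. Sox13, at 60.8% GC, had a fitted GC and length trend of -0.35 there, near the -0.31 of Rara. Its call without that trend is not given here. The nearest genes were chosen by their fold changes against XY-WT, so values near those of the member follow from the choice. Likeness over 3 groups is a description of these tables and was not tested.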

How the data were processed

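RNA sequencing data of 9 fetal mouse gonad samples in 3 groups were used as 3 tables of group comparisons. Per the file headers, the authors' deposited columns were log2 fold changes and mean log2 expression, limma t and log-odds scores, and limma p-values with Benjamini-Hochberg adjustment. Per the submitters' processing notes, the genome was GRCm38 and the tools included TopHat2 2.0.8, limma 3.24.0, Trimmomatic 0.30 and HTSeq 0.6.1p1. Filters, strand setting and offsets are not given in the sources used here. Per the labels' protocols, RNA was amplified by SPIA, and reads were pairs of 150 nt. Amplification can favour some GC contents and lengths. Depth per sample is unknown, so no counting interval was given.

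SE was the log2 fold change over t, and 95% intervals used the 15.27 degrees of freedom implied by t and p. Group levels were taken from the mean and the fold changes with equal weight for the groups. The SE of a group level was solved from the 3 contrast SEs, taking the groups as independent, which gave positive variances for 100% of genes. Fold changes of the 3 tables added up within 0.005. GC content, length and positions were from GENCODE M21 (GRCm38), found for 15192 genes, and promoters from RefSeq (GRCm38.p6). Neighbouring levels were called different when their gap exceeded its 95% interval.

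Named genes were the 9 members, called genes of the wider list (1 of which is not reported here), Stra8, Rec8, the 3 nearest genes at or above the median expression of 3.19 for Cyp26b1 and each member called between the sexes, and Sox9. Mro, Emx2, Top2b and other genes outside this rule were named after their values were seen. Members and lists were chosen with earlier results of these data known. Alternatives were an adjusted p under 0.01, a 2-fold limit, adjustment over the 3 comparisons, Bonferroni adjustment, genes at or above median expression, median centring, a GC and length trend (robust regression, degree 3) and the union of exons as length. Calculations of calls, intervals and the trend were checked on data simulated from the same SEs and degrees of freedom. Such data cannot show whether the derived SEs, the group levels or the trend removal are right. Software was scipy 1.17.1, statsmodels 0.14.6, numpy 2.4.6 and pandas 2.3.3 under Python 3.11.15.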

Additional observations from a re-analysis of the deposited data

How the results depend on the processing

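Of 174 repeats of the members' fold changes under the alternatives, 160 kept their side of the threshold, 14 lost a call and none gained a call or changed direction among calls. Members called in XY-KO against XY-WT went from 1 to 0 under each of 4 settings: a 2-fold limit, Bonferroni adjustment, a stricter adjusted p (0.01) and subtraction of the GC and length dependence. In XX-WT against XY-WT they went from 5 to 3 with a 2-fold limit and 2 with Bonferroni adjustment, and in XY-KO against XX-WT from 4 to 2 with Bonferroni adjustment and to 2 among genes at or above median expression, where only 4 members were tested. Wider retinoid genes called in XY-KO against XY-WT went from 2 to 1 with a 2-fold limit and at the stricter adjusted p. Bonferroni adjustment left 0. They went to 3 (2 higher, 1 lower) both when adjusted over the 3 comparisons together and with median centring. Among genes at or above the median expression of 3.19, 1 was called, and it was higher. This was neither Rarres1 (mean 0.64 in log2 CPM) nor Fabp5 (mean 2.43), the 2 called before, since both lie below that median. In XX-WT against XY-WT the wider genes called went from 16 to 4 with a 2-fold limit and 3 with Bonferroni adjustment. In XY-KO against XX-WT they went from 11 to 5, 3 and 7 with a 2-fold limit, Bonferroni adjustment and genes at or above median expression. Only 26 of the 40 wider genes were tested at or above median expression.

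Over all genes, calls in XY-KO against XY-WT went from 347 to 139 at the stricter adjusted p, 190 with a 2-fold limit, 922 when adjusted over the 3 comparisons together, 55 with Bonferroni adjustment and 206 at or above median expression. With the GC and length dependence subtracted they were 263, with 120 higher and 143 lower against 107 and 240. In XX-WT against XY-WT, 3560 became 2127, 1836, 627 and 1879 under the same settings without the joint adjustment, and in XY-KO against XX-WT 2796 became 1699, 1540, 481 and 1397. The last value of each was again among 7651 genes. With the union of exons as length, 17 of 27 levels per kb moved by more than the spread between samples. No paired analysis was possible because the tables hold no values per sample, and for the same reason no replicate could be left out.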
